A study of Mus musculus with 2 samples.

Results

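A set of 10 genes of regulated exocytosis was followed across the cell types of mouse pancreatic islets. They were taken as a fixed list of symbols, all of which were found among the 22381 mouse genes of the count tables: Syt4, Syt7 and Syt13, Sytl4, Rab3a and Rab27a, Snap25, Stx1a and Vamp2, and Unc13a. Single-cell RNA sequencing had been performed on islets of C57BL/6N mice aged 5 weeks, with 1 library per group, and each library held cells of 150 islets pooled from 4 mice. The library labelled TBL/RBKO came from mice with Cre inserted into the Ins1 gene and floxed alleles of Tbl1x and Tbl1xr1, a design meant to delete both genes in β-cells, and the control library, labelled wildtype, from littermates without Cre. Both groups of islets were cultured overnight at 37 °C in medium with 10% FBS before the cells were separated. The comparison asks how the genes of the release machinery differ between islets with and without Tbl1x and Tbl1xr1 in β-cells. With 1 library per group there was no replicate and no test, so every difference below describes these 2 libraries, and the 95% intervals cover counting error only.

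Hormone granules are released when vesicle and plasma membrane SNARE proteins zip together. VAMP2 sits on the granule, syntaxin 1A and SNAP-25 sit on the plasma membrane, and Munc13 proteins prime the complex. Rab3a and Rab27a on the granule bind effectors such as granuphilin, the product of Sytl4, which docks granules at the membrane in β-cells. Synaptotagmins couple fusion to calcium, and synaptotagmin 7 is a high-affinity calcium sensor of insulin and glucagon release.

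Promoter sequence from RefSeq (table on GRCm38.p6) was found for 5 of the genes, as 7 windows from 250 bases before to 50 after a start site. Those of Sytl4 and Unc13a are shown because Sytl4 had the largest difference between the libraries and Unc13a held both parts of the RE1 element, the site of the neuronal gene repressor REST. Both are written 5′ to 3′ on the minus strand, at chrX:133981813-133982062 for the 250 bases before the Sytl4 start site and at chr8:71671724-71671752 for 29 bases that begin at base 256 of the Unc13a window. Capitals mark the RE1 parts.
Sytl4: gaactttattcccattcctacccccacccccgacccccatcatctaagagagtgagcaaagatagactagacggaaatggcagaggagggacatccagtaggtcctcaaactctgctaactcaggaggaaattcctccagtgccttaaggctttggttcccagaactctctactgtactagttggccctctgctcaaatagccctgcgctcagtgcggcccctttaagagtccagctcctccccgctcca
Unc13a: gcgCTGTCCgcgcccccGGTGCTGAAgcg
Motifs were searched on both strands in 32851 windows of all genes: a cAMP response element (TGACGTCA, in 1.79% of windows), the left and right parts of RE1 (TTCAGCACC, 0.371%, and GGACAG, 22.2%), an E-box (CACGTG, 7.15%), a TATA box (TATAAA, 13.6%) and a MAF recognition core (TGCTGAC, 4.67%), of which the left part of RE1 and the MAF core share the letters TGCTGA on opposite strands. The Sytl4 window held none of them, and 7 CpG in 300 bases, the median of all windows. The Unc13a window held both RE1 parts with 8 bases between them, and both occurred in 30 of all windows (0.0913%). That count takes the parts at any distance, in any order and on either strand. Whether the Unc13a stretch is a REST site was not tested. Windows of Rab27a held GGACAG and an E-box, and no other motif searched was found in the windows of the 5 genes.

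The control library held 7067 barcodes and 241434108 UMIs, the molecular tags that mark single captured transcripts, and the library labelled TBL/RBKO held 5833 barcodes and 185062206 UMIs. Barcodes with more than 2500 detected genes and under 10% mitochondrial UMIs were kept (4747 and 4179, 12 of them with a sequence in both libraries). Each was placed in a class by its largest hormone, at 100 or more UMIs per 10000. The β class (Ins1 and Ins2) held 2877 control barcodes and 1338 of the library labelled TBL/RBKO, the α class (Gcg) 1284 and 1546, the δ class (Sst) 223 and 374, and the PP class (Ppy) 259 and 495. Cre UMIs were found in the library labelled TBL/RBKO alone (3247 against 0), in 274 of its β class barcodes. The levels of the targeted genes went against its label, since in the β class Tbl1x had 96.9 CPM (counts per 1000000 UMIs) in the control and 351 CPM in the library labelled TBL/RBKO, and Tbl1xr1 20.0 and 129 CPM. These are counts at the 3′ end of transcripts and need not report on the floxed exons. All 7 β-cell markers were detected in the β class of both libraries, with Mafa at 463 and 85.5 CPM, Slc2a2 at 316 and 55.3 CPM, Nkx6-1 at 189 and 115 CPM, Pdx1 at 114 and 81.3 CPM and Iapp at 44921 and 47556 CPM. Insulin made up 49.6% and 27.9% of β class UMIs, 16.3% and 60.8% of its barcodes carried a second hormone at 100 UMIs per 10000, and 49.5% and 76.7% had 6000 detected genes or more. The 20 markers of immune, endothelial, stromal and ductal cells summed to 140 and 284 CPM there, with Cd3e at 0 in both, Ptprc at 1.23 and 0.72 CPM, and Spp1 (23.8 and 150 CPM) and Krt19 (1.12 and 63.6 CPM) higher in the library labelled TBL/RBKO. Of the 20, 7 had 10 CPM or more in the control, where C1qa was highest. In the library labelled TBL/RBKO 4 did, and Spp1 was highest, so the higher sum was not shared by all markers. In non-endocrine barcodes the 20 markers summed to 11709 and 9666 CPM. With barcodes that carried such markers left out, the β class ratio of Sytl4 below was -1.95. Values by insulin share, second hormone and detected genes are given below, and the part of all these differences in the results was not tested.

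Of the 10 genes, Sytl4 alone was set apart by more than 2-fold in the β class, and it was lower in the library labelled TBL/RBKO. Snap25 and Syt7 came next and were higher, just under 2-fold. A log2 ratio, library labelled TBL/RBKO over control, was taken from CPM and set relative to the median of all genes with a mean of 10 CPM or more in both libraries, since that median was 0.31 in the β class. When hormone and mitochondrial UMIs were left out of the total the median became -0.14. The 2-fold limit (1 on the log2 scale, relative to the median) was passed upward by 294 of 7536 genes in the β class (3.90%) and downward by 151 (2.00%). Of the 9 genes of the list that had 10 CPM, 0 passed it upward and 1 downward, and their median was 0.04.

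**Figure D1:**
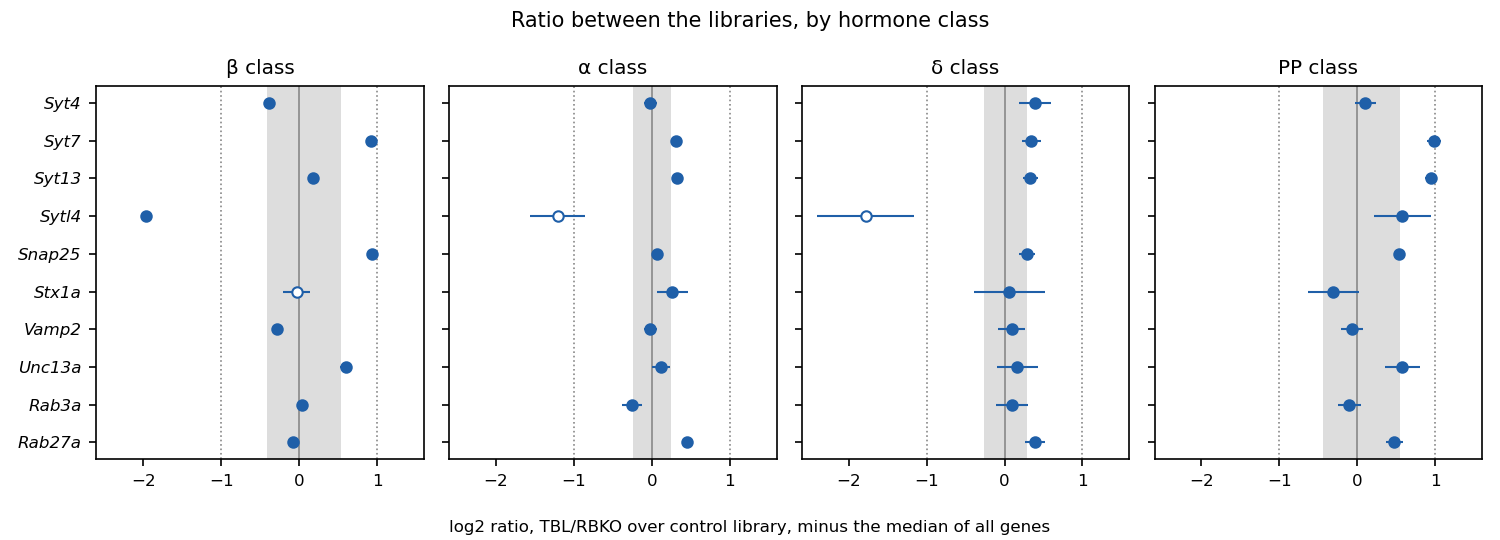
Log2 ratio between the libraries relative to the median of all genes (x axis) for the 10 genes in each hormone class, with 95% counting intervals, open circles for genes under 10 CPM, a grey band from the 10th to the 90th percentile of all genes and dotted lines at 2-fold. In the β class Sytl4 lay at -1.96 and Snap25 and Syt7 at 0.93 and 0.92, while in the α class all 9 genes at 10 CPM lay between -0.26 and 0.45.

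Among the synaptotagmins, Syt7 was higher in the β class of the library labelled TBL/RBKO while Syt13 was nearer to the median of all genes and Syt4 was below it. Syt7 (chr19:10366033-10430544, GRCm39, plus strand) was counted at 109 CPM (95% interval 108 to 111) in the control and 256 CPM (253 to 259) in the library labelled TBL/RBKO. That is 0.92 above the median of all genes on the log2 scale (interval 0.89 to 0.95), or 1.89-fold, and 95.4% of genes lay below it. Syt13 (chr2:92745339-92790093), a synaptotagmin whose C2 domains are thought not to bind calcium, had 277 CPM (275 to 280) and 389 CPM (385 to 393), which left 0.18 (0.16 to 0.20) relative to the median. Syt4, a synaptotagmin known to increase as β-cells mature, lies on chromosome 18 (31570857 to 31580794, minus strand). Its levels were 91.7 CPM (90.3 to 93.1) and 86.7 CPM (84.9 to 88.5), and -0.39 (-0.43 to -0.35) relative to the median, with 11.4% of genes below it and a range from -0.66 to -0.15 over the alternatives.

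The granule side was divided, with Sytl4 lower and both Rab genes close to the median of all genes. Sytl4 (chrX:132837134-132882561, minus strand) had 32982 UMIs, 181 CPM (179 to 183), in the control and 5808 UMIs, 57.5 CPM (56.0 to 59.0), in the library labelled TBL/RBKO. Its log2 ratio was -1.65 (-1.69 to -1.61) on CPM and -1.96 relative to the median, a 3.90-fold lower level, and 0.358% of genes had a lower ratio. When barcodes with a second hormone were left out it was -1.17, a smaller difference than over the whole class by more than 1.5 times, and it remained past 2-fold. Rab3a (chr8:71207238-71211333), the Rab of synaptic and insulin granules, had 48.1 CPM (47.1 to 49.1) and 61.2 CPM (59.7 to 62.8). Rab27a (chr9:72952124-73004911), the partner of granuphilin, had 93.8 CPM (92.4 to 95.2) and 110 CPM (108 to 113). Both were higher on CPM (0.35 and 0.24), at 0.04 and -0.07 relative to the median. They were lower (-0.10 and -0.22) with hormone and mitochondrial UMIs left out and no median subtracted, so neither had a direction apart from the scaling.

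The SNARE genes differed among themselves. Snap25 (chr2:136533580-136624362), which gives a membrane-anchored protein with a pair of SNARE motifs, had 174 CPM (172 to 175) in the control β class and 409 CPM (405 to 413) in that of the library labelled TBL/RBKO. Its ratio relative to the median was 0.93 (0.91 to 0.95), or 1.91-fold, and 95.5% of genes lay below it. Vamp2 (chr11:68979316-68983210) was counted at 56.4 CPM (55.3 to 57.5) and 57.2 CPM (55.8 to 58.7), a ratio of 0.02 (-0.03 to 0.07) on CPM that became -0.29 (-0.33 to -0.24) relative to the median. Stx1a (chr5:135052139-135079963) was the least counted gene, at 3.62 CPM (3.35 to 3.90) and 4.38 CPM (3.98 to 4.81) in the β class. That is below its 23.3 and 13.7 CPM in non-endocrine barcodes, defined, whatever their class, as those with 20 or more UMIs of the 20 markers and under 1000 hormone UMIs per 10000. Stx1a was thus under 10 CPM in the β class and no ratio is read there. Whether its few UMIs came from the β class cells or from free RNA of other cells was not tested.

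Unc13a, the Munc13 protein that primes granules for fusion, was higher in the β class of the library labelled TBL/RBKO. It had 17.0 CPM (16.4 to 17.6) in the control, from 3092 UMIs, and 31.9 CPM (30.8 to 33.0), from 3218 UMIs. Relative to the median of all genes its ratio was 0.60 (0.53 to 0.67), or 1.52-fold. The gene lies at chr8:72076694-72124685 on the minus strand. The annotation places no protein-coding gene on the same strand over any of the 10 genes, and Cell Ranger 7 counts intronic reads by its standard settings, so both spliced and unspliced transcripts may be in these values.

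**Figure D2:**
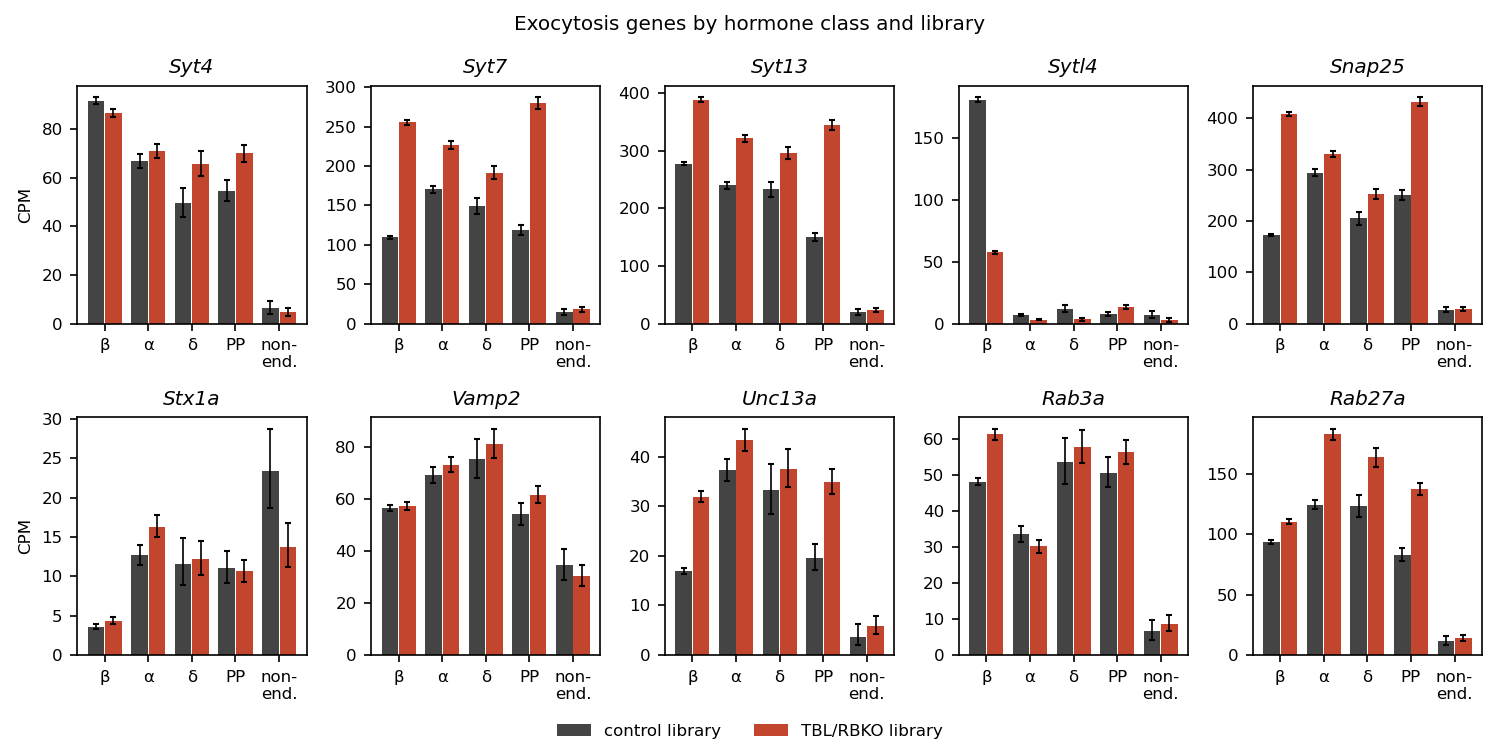
CPM (y axis, each panel with its own scale from 0) of each gene in the 4 hormone classes and in non-endocrine barcodes (non-end.), control in grey and the library labelled TBL/RBKO in red, with 95% Poisson intervals. Sytl4 stood at 181 and 57.5 CPM in the β class and at 13.1 CPM or less everywhere else, and Stx1a was higher in non-endocrine barcodes than in the β class.

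Outside the β class the order of the levels differed from gene to gene. Hormones made up 50.8% of control β class UMIs, against 21.4, 13.4 and 35.3% in the α, δ and PP classes. Hormone UMIs therefore lowered the CPM of other genes most in the β class. Sytl4 was a β class gene in both libraries, since the α class held 6.84 and 3.19 CPM, the δ class 11.8 and 3.47 CPM and the PP class 7.39 and 13.1 CPM, against 7.16 and 2.64 CPM in non-endocrine barcodes. The intervals of the control α, PP and non-endocrine levels overlapped, while the PP class of the library labelled TBL/RBKO (11.6 to 14.8) lay above its non-endocrine barcodes (1.59 to 4.12). Snap25 in the control ran from 294 CPM in the α class (288 to 301) through 251 CPM in the PP class (241 to 260) and 205 CPM in the δ class (193 to 218) to 174 CPM in the β class, and no intervals of neighbours in this order overlapped. Syt7 in the control was highest in the α class, at 170 CPM (166 to 175), followed by the δ class at 149 CPM (139 to 160), the PP class at 119 CPM (113 to 126) and the β class, again with no overlap of neighbours. In the library labelled TBL/RBKO the PP class (280 CPM, 273 to 287) and the β class came before the α class (227 CPM, 221 to 232) and the δ class (192 CPM, 183 to 200). Syt13 had its highest control level in the β class, while Vamp2 ran from 54.1 CPM in the PP class to 75.4 CPM in the δ class of the control. Without hormone and mitochondrial UMIs, control Vamp2 was highest in the β class, at 136, and lowest in the α class, at 93.8. Rab3a was lowest in the α class of both libraries, at 33.6 and 30.1 CPM.

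In the α class, whose cells should not carry the deletion, no gene of the list was set apart by 2-fold. There the limit was passed upward by 0.512% and downward by 0.0796% of 8795 genes, and by 0 and 0 of the 9 genes of the list that had 10 CPM, with a median of 0.12. The largest ratio was that of Rab27a, 0.45 (0.39 to 0.51), from 125 to 183 CPM, and 96.8% of genes lay below it. Syt13 and Syt7 stood at 0.32 and 0.31, and Rab3a at -0.26 (-0.39 to -0.13). With the level of non-endocrine barcodes subtracted, Rab27a was at 0.26, Syt13 at 0.12, Syt7 at 0.096 and Rab3a at -0.64, and Snap25 turned from 0.07 to -0.14 and Unc13a from 0.12 to -0.16. Vamp2 and Syt4 were both at -0.02, and each kept its sign in 8 of 10 alternatives. With hormone and mitochondrial UMIs left out their ratios were 0.01 before the median was subtracted, where the median of all genes was 0.03. Sytl4 stayed under 10 CPM, and its ratio of -1.20 without that minimum rests on 197 and 107 UMIs, levels near those of non-endocrine barcodes.

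In the δ class 0.723% of 8993 genes passed upward and 0.356% downward, and 0 and 0 of 9 genes of the list, whose median was 0.28. All 9 were above the median of all genes, led by Rab27a and Syt4 at 0.39. The intervals of Unc13a (-0.10 to 0.42), Vamp2 (-0.08 to 0.27), Rab3a (-0.11 to 0.30) and Stx1a (-0.40 to 0.51) included 0. Snap25 and Syt7, at 0.28 and 0.35, went to -0.36 and -0.15 without barcodes of a second hormone. That left out 186 of 223 control barcodes and 250 of 374 of the library labelled TBL/RBKO. In the PP class 4.13% of 8285 genes passed upward and 1.00% downward, and 0 and 0 of 10 genes of the list, whose median was 0.50. Syt7 (119 and 280 CPM) stood at 0.98 (0.90 to 1.07) and Syt13 (150 and 345 CPM) at 0.95 (0.87 to 1.03), just inside the limit, followed by Unc13a at 0.58 and Snap25 at 0.53 (251 and 432 CPM). Vamp2 and Rab3a were higher in the PP class on CPM (0.19 and 0.15) and lower relative to the median (-0.07 and -0.10). Sytl4 was counted among the 10 there only because it was high in the second library (7.39 and 13.1 CPM), its control level being under 10 CPM. Its ratio of 0.57 in the PP class rests on 82 and 275 UMIs. It could not be computed above 10 CPM once barcodes with insulin were left out.

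The PP class of the library labelled TBL/RBKO was divided by its insulin. Levels within classes are given as non-hormone CPM, per 1000000 UMIs other than hormone and mitochondrial ones. Among its 156 barcodes with 100 or more insulin UMIs per 10000, Snap25 stood at 823 and Syt7 at 569 non-hormone CPM, and among the 339 below that limit at 517 and 302. In the control PP class the same levels were 389 and 230 in 63 barcodes with insulin and 502 and 228 in 196 without. The higher levels were thus found in the insulin-containing barcodes of the library labelled TBL/RBKO, where relative ratios were 1.18 for Snap25, 1.41 for Syt7, 1.19 for Syt13 and 0.94 for Unc13a, against 0.07, 0.44, 0.60 and 0.38 in barcodes below the limit. The α and δ classes showed the same split for Syt7, with 435 non-hormone CPM in 90 α class barcodes with insulin and 273 in the 1456 others, and 462 in 35 δ class barcodes with insulin and 211 in the 339 others. The split was made after the values were seen. The median insulin share was 0.97, 0.94 and 0.71% in the control α, δ and PP classes, and 0.77% in control non-endocrine barcodes. For the library labelled TBL/RBKO these medians were 0.19, 0.16, 0.20 and 0.14%. The limit of 100 per 10000 thus lay near the insulin level of control barcodes outside the β class. Barcodes with insulin may therefore be unlike sets in the 2 libraries. In the library labelled TBL/RBKO the barcodes with insulin were also deeper. The PP class medians above and below the limit were 36146 and 15895 UMIs other than hormone and mitochondrial ones. Cells captured together could not be told apart from cells with 2 hormones.

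Within the β class, Sytl4 went with the insulin share of a barcode in both libraries and Snap25 and Syt7 went against it in the library labelled TBL/RBKO. In control barcodes with under 10, 10 to 30, 30 to 50 and 50% or more of their UMIs from insulin (163, 152, 1030 and 1532 barcodes), Sytl4 stood at 32.2, 167, 434 and 504 non-hormone CPM. In the library labelled TBL/RBKO (243, 574, 380 and 141 barcodes) it stood at 29.5, 53.4, 175 and 342. At an equal insulin share Sytl4 was therefore lower in the library labelled TBL/RBKO in the upper 3 bins, with ratios relative to the median of -1.47, -1.13 and -0.39, and at -0.07 in the lowest bin, where the control barcodes were shallow (median 8431 UMIs against 40144). Snap25 had no order across the control bins, at 395, 394, 460 and 387 non-hormone CPM. It ran from 890 through 759 and 612 down to 378 non-hormone CPM in the library labelled TBL/RBKO, with relative ratios of 1.23, 1.12, 0.60 and 0.14. In the bin of highest insulin its ratio before the median was subtracted was -0.03 (-0.11 to 0.04).

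Syt7 had a pattern like that of Snap25. It stood at 178, 256, 274 and 259 non-hormone CPM in the control bins and at 514, 464, 408 and 323 in those of the library labelled TBL/RBKO, with relative ratios of 1.58, 1.03, 0.76 and 0.49. Syt4 was higher with more insulin in both, from 55.8 to 244 non-hormone CPM in the control and from 113 to 235 in the library labelled TBL/RBKO. Its relative ratios were 1.07, 0.22, -0.06 and 0.12, against -0.39 over the whole class. Syt13 had relative ratios of 1.49, 0.76, 0.34 and 0.30 and Unc13a of 0.77, 0.51, 0.58 and 0.38, all above 0. The first ratio of each gene, that of Snap25 included, comes from the lowest bin, whose control barcodes were shallow as given above. They also held less Mafa and Slc2a2, at 61.1 and 84.7 non-hormone CPM against 381 and 312 in the next control bin. In the library labelled TBL/RBKO these were 4.48 and 9.98, against 49.2 and 42.7. Whether the lowest bins hold like cells was not tested. The insulin share is itself part of what differs between the libraries, and it was not varied by the experiment.

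**Figure D3:**
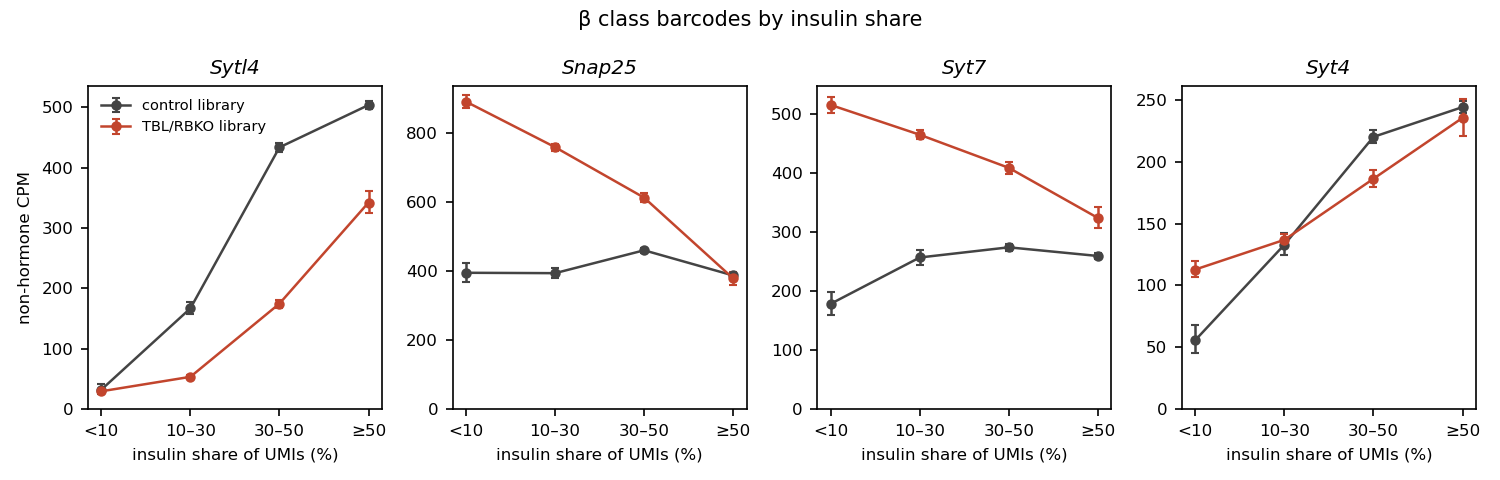
Non-hormone CPM (y axis) of Sytl4, Snap25, Syt7 and Syt4 in β class barcodes binned by the insulin share of their UMIs (x axis), for the control library in grey and the library labelled TBL/RBKO in red, with 95% Poisson intervals. Sytl4 climbed with insulin in both libraries, from 32.2 to 504 and from 29.5 to 342, while Snap25 stayed between 387 and 460 in the control and went from 890 to 378 in the library labelled TBL/RBKO.

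The levels were also read by second hormone, by Cre and by detected genes. Among barcodes of the library labelled TBL/RBKO with insulin as the only hormone (525), Sytl4 stood at 202 non-hormone CPM and Snap25 at 712, and among those that also carried Ppy (404) at 59.1 and 803. In control barcodes with insulin alone (2409) the levels were 499 and 439, so that the relative ratios were -1.15 for Sytl4 and 0.85 for Snap25. In the 274 barcodes of the library labelled TBL/RBKO in which a Cre UMI was seen, Sytl4 had 128 and Snap25 696 non-hormone CPM, and in the 1064 without one 93.1 and 725. A barcode without a Cre UMI need not lack Cre, and the barcodes with one were deeper. Their median was 43926.5 against 37150.5 UMIs other than hormone and mitochondrial ones. By detected genes, Sytl4 had relative ratios of -0.69, -1.55 and -1.97 in barcodes with under 4000, from 4000 to under 6000 and with 6000 or more genes. For Snap25 they were -0.20, 0.92 and 0.98, the first of which rests on 50 barcodes of the library labelled TBL/RBKO.

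The same differences were seen in the share of barcodes with a UMI. In the β class 93.5% of control barcodes and 77.0% of barcodes of the library labelled TBL/RBKO had a Sytl4 UMI, at median depths of 53346 and 67897 UMIs, against 14.2% and 5.84% of non-endocrine barcodes at 22398 and 21697 UMIs. With each barcode thinned to 3000 UMIs outside the hormone and mitochondrial genes, for which no barcode was too shallow, the β class shares were 66.1% (1903 barcodes) and 23.2% (311 barcodes), and the non-endocrine shares 0.676% and 0.389%. Snap25 was seen in 67.7% (exact binomial interval 66.0 to 69.4) and 78.6% (76.3 to 80.8) of thinned β class barcodes and Syt7 in 52.3% (50.5 to 54.2) and 69.1% (66.5 to 71.5), against 7.43% and 6.23%, and 5.41% and 3.50%, of non-endocrine barcodes. Stx1a was seen in 2.40% and 2.77%, less than the 4.05% and 5.84% of non-endocrine barcodes. Per barcode, the median Sytl4 level was 4.16 and 0.47 UMIs per 10000 UMIs outside hormone and mitochondrial genes, and 10% of barcodes of the library labelled TBL/RBKO had 3.34 or more, so that part of them overlapped the control.

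Some barcodes carried no hormone at 100 UMIs per 10000 and few non-endocrine markers. There were 157 of these in the library labelled TBL/RBKO and 8 in the control, too few there to be compared. The limit also lay nearer to the insulin of control non-endocrine barcodes (median 0.77%) than to that of the second library (0.14%). After thinning, Snap25 was seen in 61.8% of the 157, Syt13 in 47.1%, Syt7 in 38.9% and Rab27a in 36.9%, all above the 6.23, 4.67, 3.50 and 4.28% of non-endocrine barcodes of that library. Sytl4 was seen in 1.27% of them. The barcodes had a median of 13115 UMIs.

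Likeness to other genes was described over 8 sums, the 4 classes in 2 libraries, with Pearson's r of log2(CPM + 1) among 8643 genes at 10 CPM. The sums of a library share its depth and its free RNA, and the insulin genes also define a class. Sytl4 was most like Fam151a (r = 0.98), Ins2 (0.97) and Ins1 (0.96). Among the genes most like Snap25 were Lgals3bp (0.97) and Abcg2 (0.96). Among those most like Syt7 were Rimbp2 and Mapk14 (0.99 each). Within the list, Snap25 and Syt7 were alike (0.91), as were Unc13a and Rab27a (0.89).

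Of 94 further genes of the exocytosis pathway, 60 had 10 CPM in the β class, of which 4 passed the 2-fold limit upward and 1 downward. Among all genes tested in that class, 3.90% passed upward and 2.00% downward, as above. The median of the 60 was 0.03, near that of all genes. Of the 6 other synaptotagmins at 10 CPM, 3 were higher in the library labelled TBL/RBKO. Syt16, a synaptotagmin thought not to bind calcium, had 9.73 and 137 CPM (3.50 relative to the median) and was counted only because it was high in the second library, its control level being under 10 CPM. Syt11 had 29.8 and 93.3 CPM (1.34) and Syt9, a calcium sensor of dense-core granules, 14.1 and 36.9 CPM (1.08). Syt1 stayed just inside the limit at 0.91 and Syt5 was at -0.57. Rimbp2, which ties calcium channels to release sites, was the only one of 12 priming and active zone genes past the limit, with 164 and 506 CPM (1.32).

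Exph5, a Rab27 effector, was the only one of 12 genes of the Rab3 and Rab27 partners past it, with 44.5 and 26.1 CPM (-1.08). None of 18 other SNARE genes passed it, and their ratios lay between -0.34 and 0.50. None of 12 genes for SNARE binding and disassembly passed, with a range from -0.53 to 0.94. In the α class 64 of the 94 genes had 10 CPM and 0 passed in either direction, where 0.512% and 0.0796% of all genes did, so that few calls among 64 genes could be looked for. In the PP class 64 had 10 CPM, of which 3 passed upward and 1 downward, shares near those of all genes (4.13% and 1.00%). Syt16 (31.1 and 169 CPM, 2.19), Rimbp2 (189 and 487 CPM, 1.11) and Pclo, a large active zone scaffold (174 and 429 CPM, 1.05), were higher and Sytl2, another Rab27 effector (38.4 and 14.1 CPM, -1.70), was lower. In the δ class 64 had 10 CPM and 0 passed, against 0.723% and 0.356% of all genes. Vamp7 was not analysed here.

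**Figure D4:**
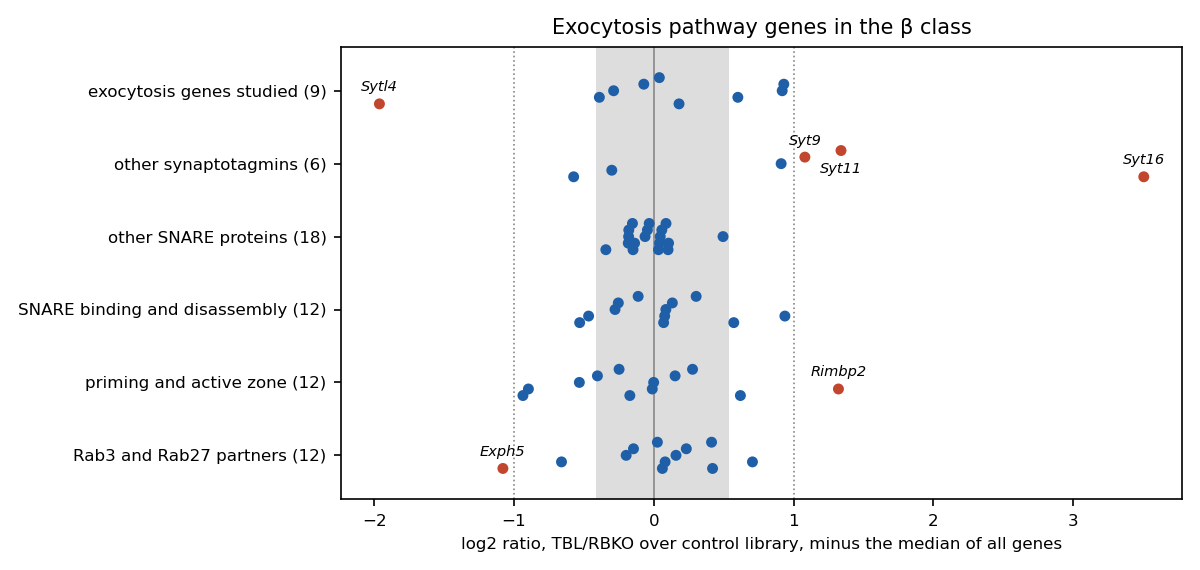
Log2 ratio between the libraries relative to the median of all genes (x axis) in the β class, 1 point per gene at 10 CPM or more, by list with the number of genes in parentheses, a grey band from the 10th to the 90th percentile of all genes, dotted lines at 2-fold and genes past them in red with their names. Sytl4 lay lowest at -1.96 and Syt16, under 10 CPM in the control, highest at 3.50, while the 18 other SNARE genes lay between -0.34 and 0.50.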

How the data were processed

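The authors deposited raw UMI counts per gene and barcode (filtered matrices), made from Chromium 3′ libraries. The submitters' processing notes name Cell Ranger 7.1.0, GRCm39 and mm39. Per the values, neither free RNA nor doublets had been removed, and no doublet caller was run here. Software was scipy 1.17.1 and numpy 2.4.6 (Python 3.11.15), with matplotlib 3.10.9 for figures and pandas 2.3.3 for tables. Barcodes with over 2500 genes and under 10% mitochondrial UMIs were kept with no upper limit on genes, placed in hormone classes, and their counts were summed per library and class. CPM are counts per 1000000 of all UMIs of a sum. Intervals are exact (Poisson for levels, conditional binomial for ratios, binomial for shares). With 1 library per group nothing was tested, and genes are reported by a limit of 2-fold relative to the median of genes at 10 CPM. The computation was tested on simulated data. The 10 genes, the pathway lists and the marker lists were chosen with earlier results of these data known. Named genes were the 10, the pathway genes past the limit in the β or α class, and the 3 genes most like each of the 3 genes of the list with the largest β class ratios, of which some are not reported here. Syt1, Syt5 and the pathway genes past the limit in the PP class were named after their values were seen. Positions are from GENCODE M39 on GRCm39, matched by Ensembl identifier.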

Additional observations from a re-analysis of the deposited data

Results flagged for a closer look

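Rab27a, the Rab of granuphilin-bound granules, differed in sign between the β class and the α class. Its log2 ratio relative to the median of all genes was -0.071 in the β class and 0.45 in the α class, with neither counting interval reaching 0. The difference was not tested, as each class had 1 library per group, and on CPM both ratios were positive (0.24 and 0.55).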

How the results depend on the processing

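The Sytl4 ratio in the β class remained below -1 in all 9 alternatives, between -2.27 (level of non-endocrine barcodes subtracted) and -1.17 (barcodes with a second hormone left out). Snap25 there lay between 0.77 and 0.95 and Syt7 between 0.72 and 0.96. The sign of a ratio was kept in 75 of 80 values in the β class, 77 of 86 in the α class, 80 of 86 in the δ class and 86 of 90 in the PP class. In the β class the exceptions were 4 values of Rab3a (lowest -0.26) and 1 of Syt13 (-0.10, with the non-endocrine level subtracted). Without a minimum of 10 CPM, 1 gene passed the limit downward in the α class (Sytl4) against 0 with it. In the δ class Snap25 and Syt7 went from 0.28 and 0.35 to -0.36 and -0.15 without barcodes of a second hormone. These were 186 of 223 control barcodes and 250 of 374 of the library labelled TBL/RBKO. Sytl4 passed downward in the δ class in 3 alternatives, and in the PP class Syt7 passed upward in 2 (1.01 and 1.00). The α, δ and PP class values without insulin-containing barcodes were chosen after seeing the data. No paired analysis was possible because each group held 1 library, and leaving out a replicate was not possible for the same reason. Levels of Stx1a in the β class were under 10 CPM and below those of non-endocrine barcodes. Levels of Sytl4 in the α class were near those of non-endocrine barcodes, and no ratio is read from either gene there.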
